A study of Mus musculus with 23 samples.

Results

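The protocadherin genes were followed across 23 clonal preadipocyte lines. All genes were taken whose array probe sets carry a single symbol beginning with Pcdh, and where a gene had several probe sets the brightest on average over the 23 lines stood for it. This gave 35 of the 18193 genes named on the array: 22 Pcdhb genes and 1 Pcdhg gene (Pcdhgc4) from the clusters on chromosome 18, no Pcdha gene, and 12 non-clustered genes. The Pcdha genes were present only through 6 probe sets that list 9 or 14 symbols each, and these lay outside the selection. Their values ran from 2.62 to 5.41 on the log2 scale of the deposited table, whose median over all probe sets was 5.13.

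Each line was expanded from 1 sorted stromal vascular cell, taken from the part of fat tissue that holds the precursors of fat cells, and was measured on 1 array. The cells came from 1 male Immortomouse aged 8 weeks, a strain with a temperature-sensitive T antigen that lets cells divide at a low temperature, and were kept at 33 °C with 10 units/mL of interferon gamma. The clone names begin with SCF or PGF, read here as the subcutaneous and the perigonadal depot. The submitters sorted the lines into types by clustering their expression data: Type 1 (3 lines, all PGF), Type 2 (5 lines, 4 SCF and 1 PGF), Type 3 (8 lines, 4 of each) and Other (7 lines, 4 SCF and 3 PGF). The genotype, growth conditions and age are shared by all groups, and no line was an untreated or non-immortalised control. Because the labels were themselves drawn from expression data, a p-value between types describes these groups and cannot serve as evidence for them. All lines share 1 mouse, so the p-values measure the spread between clones and not between animals.

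Protocadherins form the largest group of cadherins, membrane proteins whose extracellular repeats bind a like molecule on a neighbouring cell. The clustered genes are best known from neurons, where each cell switches on its own small set of promoters in the Pcdha, Pcdhb and Pcdhg clusters, a choice tied to CTCF, cohesin and DNA methylation, so that sister branches recognise each other. The non-clustered genes have separate promoters and often mark tissue regions during development. In preadipocytes their use is less described, and a set of clones from 1 animal shows how much the RNA of each gene varies from clone to clone.

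Most protocadherins gave low values in these cells. A gene was tested when 3 or more lines exceeded the table median, and 11 of the 35 met this: Pcdh7, Pcdh9, Pcdh10, Pcdh18, Pcdh19, Pcdhb16, Pcdhb17, Pcdhb20, Pcdhb21, Pcdhb22 and Pcdhgc4. A further 22 were never above the median, Pcdh17 was above it in 1 line and Pcdh20 in 2. Among all genes 12307 of 18193 were tested. Pcdh19, Pcdh7 and Pcdhgc4 lay above the table median in all 23 lines. Comparisons were made within a gene, since the signal of 1 probe set cannot be set against that of another.

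The marker genes of other cells were read first. The mean over 7 mesothelial markers was 9.57 to 10.44 in the 3 Type 1 lines and 3.97 to 5.51 in all other lines, whereas the mean over 9 preadipocyte markers was 7.16 to 7.24 in Type 1 and 6.98 to 9.55 elsewhere. Of the 7 mesothelial genes 6 were higher in Type 1 than in Type 2 and 1, Krt19, was lower (-2.29), and 6 were higher than in Type 3. Of the 9 preadipocyte genes 4 were lower in Type 1 than in Type 2: Pparg (-4.06), Ebf2 (-3.73), Zfp423 (-2.80) and Pdgfrb (-2.41). Cd34 was higher (4.42), so the list mean hides changes in both directions. Against Type 3, 5 of the 9 were lower and none higher. The mean over 10 neuronal and glial markers was 5.40 to 5.48 in Type 1 and 4.63 to 5.28 elsewhere; 4 of them (Elavl4, Snap25, Syt1 and Nefl) never exceeded the table median, while Mbp (4.65 against Type 2) and Ncam1 (2.95) were higher in Type 1 and Tubb3 lower (-2.71). The mean over 5 endothelial markers was 4.28 to 4.60 in Type 1 and 4.08 to 5.59 elsewhere, with 3 never above the median (Pecam1, Cdh5 and Emcn). Kdr was higher in Type 1 than in Type 2 (2.03) and Type 3 (2.19). Tek went the other way, at -0.93 against Type 2, which did not pass, and -2.91 against Type 3, which did. The mean over 6 leukocyte markers was 4.75 to 4.84 in Type 1 and 4.36 to 5.66 elsewhere, with 3 never above the median (Ptprc, Adgre1 and Itgam). Csf1r was lower in Type 1 than in Type 2 (-3.34) and Type 3 (-1.85), while Cd68 was higher than in Type 3 (1.30). Type 1 line 1 stood apart by its 3'-to-5' difference of actin, a sign of RNA quality, at 1.58 against 0.53 to 1.00 in the other lines. Array medians ran from 5.09 to 5.16.

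**Figure D1:**
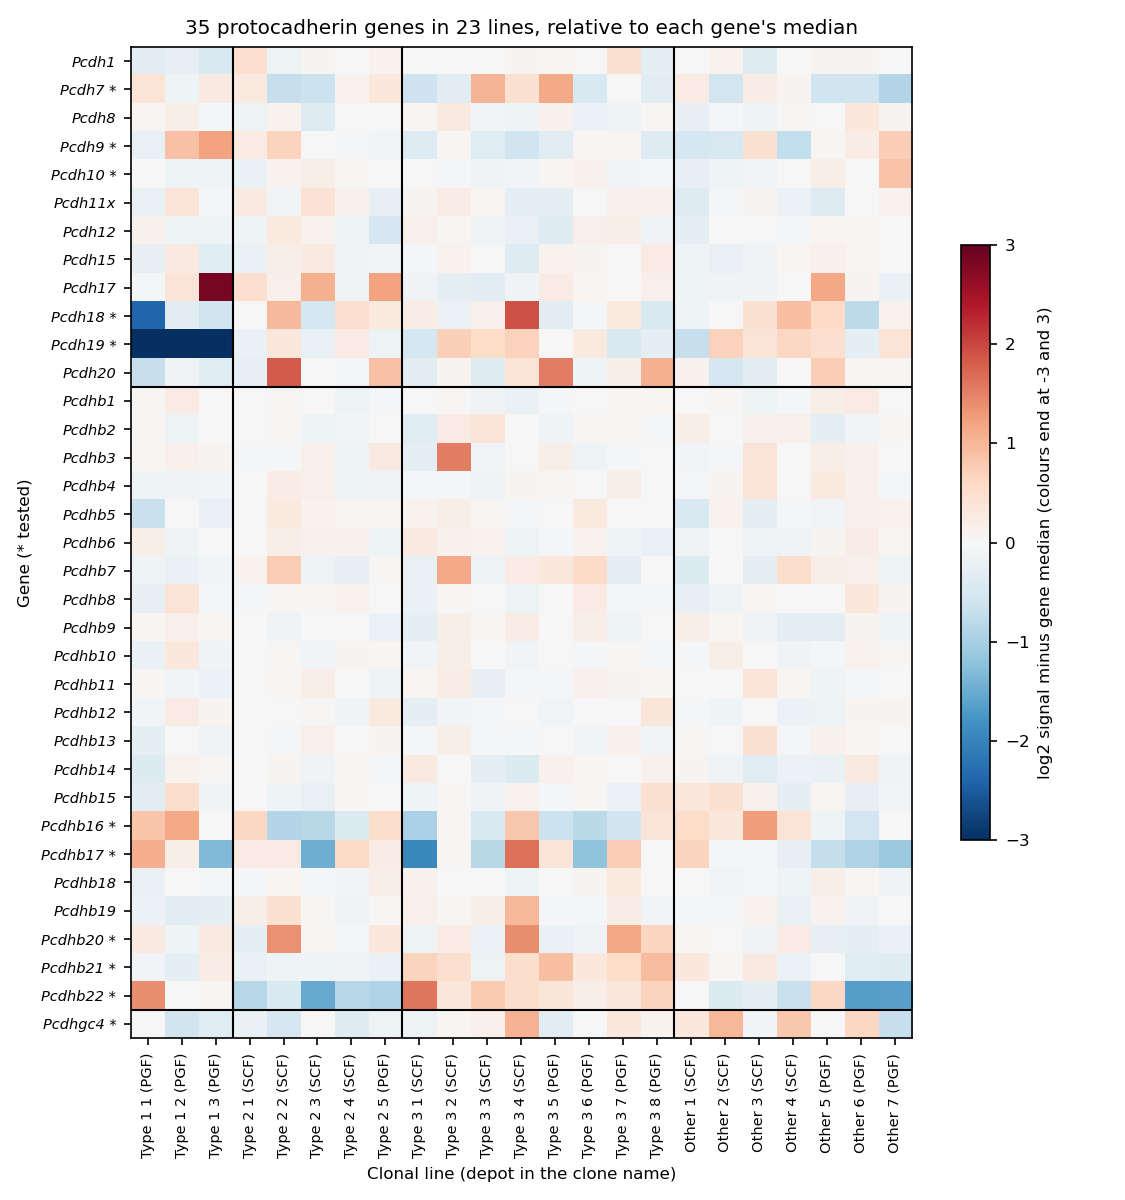
Rows are the 35 protocadherins and columns the 23 lines ordered by type label; colour gives each gene's log2 signal minus its own median over the lines. The low Pcdh19 values of the 3 Type 1 lines stand out, and most Pcdhb rows show little colour.

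Clone-to-clone variation was read from the range, the highest minus the lowest log2 value over the 23 lines. A range of at least 3 was found in 5 of the 35 protocadherins (14.3%), against 6.58% of all genes. These 5 were Pcdh19 (6.09), Pcdh18 (4.30), Pcdhb17 (3.58), Pcdhb22 (3.26) and Pcdh17 (3.19), and no test was made on this share. The median range was 0.95 over the protocadherins and 0.83 over all genes. Over the tested genes alone it was 2.02 for the 11 protocadherins and 0.99 for all, a description only, since the filter kept members by their level in some lines. The next ranges below 3 were those of Pcdh20 (2.54), Pcdhb16 (2.24) and Pcdh7 (2.02). All these ranges are those of the chosen probe sets. Another probe set had a range of 3.48 for Pcdh10 and of 3.05 for Pcdhb16, and another of Pcdh18 had 1.98. A range joins type differences and differences among clones of 1 type, and the within-group SD of the fit separates them. That SD was 0.95 for Pcdhb17, 0.71 for Pcdh18, 0.63 for Pcdhb16 and 0.62 for Pcdhb22, beside a median of 0.21 over the tested genes. When the Type 1 lines were left aside, the range fell from 6.09 to 1.40 for Pcdh19. It fell from 4.30 to 2.70 for Pcdh18 and from 3.19 to 1.54 for Pcdh17. For Pcdhb17 and Pcdhb22 it stayed at 3.58 and 3.26. The share of all genes that keep a range of at least 3 without Type 1 is not given here.

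**Figure D2:**
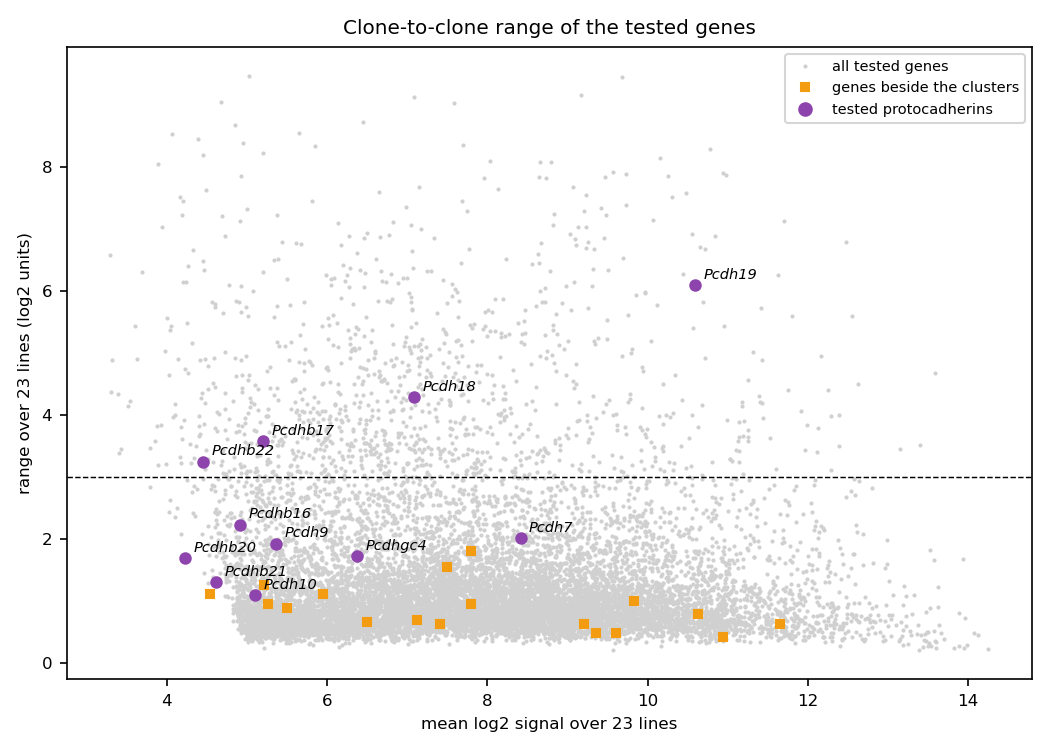
Each point is a tested gene, with its mean log2 signal on the x axis and its range over the 23 lines (log2 units) on the y axis; purple circles are the 11 tested protocadherins, orange squares the 18 tested genes beside the clusters, and the dashed line is a range of 3. Pcdh19, Pcdh18, Pcdhb17 and Pcdhb22 lie above the line, and all orange squares lie below a range of 2.

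In Type 1 minus Type 2, 25.2% of the tested genes passed the test (limma, Benjamini-Hochberg adjusted p below 0.05), 14.5% higher and 10.7% lower. Among the 11 tested protocadherins 1 was higher (Pcdhb22) and 2 lower (Pcdh18 and Pcdh19), a share close to that background. In Type 1 minus Type 3, 34.7% of genes passed, 18.9% higher and 15.8% lower, and among the protocadherins 1 was higher (Pcdh9) and 3 lower (Pcdh18, Pcdh19 and Pcdhb21), again near the background. Both comparisons use the same 3 Type 1 lines and are not independent of each other. In Type 2 minus Type 3, 0.382% of genes passed, 0.203% higher and 0.179% lower, and 1 protocadherin did (Pcdhb22, lower). Pcdhb21 passed the filter on low values only through Type 3 lines, and Pcdhb22 through no Type 2 line. Their calls against those types are not independent of that selection, so the counts that hold them are a description only. In Other minus the mean of the 3 types, 5.73% passed, 2.5% higher and 3.23% lower, and 1 protocadherin did (Pcdh19, higher). The median difference of the 11 tested genes was 0.02, -0.12, -0.07 and -0.16 in these comparisons in turn, and over all tested genes it was 0.01, 0.01, -0.01 and -0.01.

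Of the non-clustered genes, Pcdh19 and Pcdh18 are delta protocadherins, a class with short conserved cytoplasmic motifs. PCDH19 is known from an X-linked epilepsy in which cells with and without the protein lie side by side. The stretches just before their starts are shown because these are the non-clustered genes whose values fell in Type 1. The sequence is RefSeq's on build GRCm38.p6, written on each gene's own strand, with every CpG in capitals since CpG methylation is a known control of protocadherin promoters. The windows are the 250 bases before the start, chrX:133688994-133689243 on the minus strand for Pcdh19 and chr3:49757317-49757566 on the minus strand for Pcdh18.
Pcdh19: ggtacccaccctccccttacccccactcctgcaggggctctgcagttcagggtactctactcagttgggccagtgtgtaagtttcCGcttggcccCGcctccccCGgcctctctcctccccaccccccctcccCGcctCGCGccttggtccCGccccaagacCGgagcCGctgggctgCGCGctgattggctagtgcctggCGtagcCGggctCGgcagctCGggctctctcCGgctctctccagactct
Pcdh18: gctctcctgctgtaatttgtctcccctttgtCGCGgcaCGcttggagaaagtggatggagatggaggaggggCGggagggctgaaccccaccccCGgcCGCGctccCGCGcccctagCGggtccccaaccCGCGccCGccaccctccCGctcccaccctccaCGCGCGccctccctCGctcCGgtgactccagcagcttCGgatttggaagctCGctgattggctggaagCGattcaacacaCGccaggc
Pcdh19 holds 16 CpGs and a GC content of 69.2% in this window, and Pcdh18 holds 23 CpGs and 68.0%. Over 32851 such windows the medians were 6 CpGs and 52.4%, and 27.3% of windows held at least 15 CpGs. Each holds 1 match to the GC box (GGGCGG on either strand), which 32.7% of windows hold, and none to TATAAA on either strand, which 12.4% hold. These are descriptions of letters, and no methylation was measured here.

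Pcdh19 was the protocadherin with the largest difference between type labels. In Type 1 its log2 signals were 5.82, 7.34 and 5.72. In Type 2 they were 10.90, 11.43, 10.89, 11.36 and 10.94. In Type 3 the lowest, median and highest were 10.57, 11.25 and 11.81, and in Other 10.41, 11.53 and 11.79. All 3 Type 1 lines lay below all 20 other lines, and the other groups overlapped one another. The difference was -4.81 ± 0.37 (SE) for Type 1 minus Type 2 (adjusted p = 1.72e-09, limma), 28.1-fold lower, and -4.93 ± 0.34 for Type 1 minus Type 3 (adjusted p = 2.38e-10, limma), 30.6-fold lower. Type 2 minus Type 3 was -0.12 ± 0.29 (adjusted p = 0.871, limma). Other exceeded the mean of the 3 types by 1.80 ± 0.23 (adjusted p = 2.73e-05, limma), and with the Type 1 lines left out it differed from Types 2 and 3 by 0.17 (adjusted p = 0.853, limma).

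The low Pcdh19 signal was seen with each of the gene's 3 probe sets, which correlated with the chosen one at 0.998 and 0.991 over the 23 lines. All Type 1 lines are PGF, so depot was set aside by looking only at PGF lines: the 8 others ran from 10.65 to 11.59, with no overlap. Leaving out any 1 line kept the call in both Type 1 comparisons. The 3 lines with low Pcdh19 are also the 3 with the highest mesothelial and the highest neuronal and glial means, given above, and the part of those markers in the result was not tested.

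**Figure D3:**
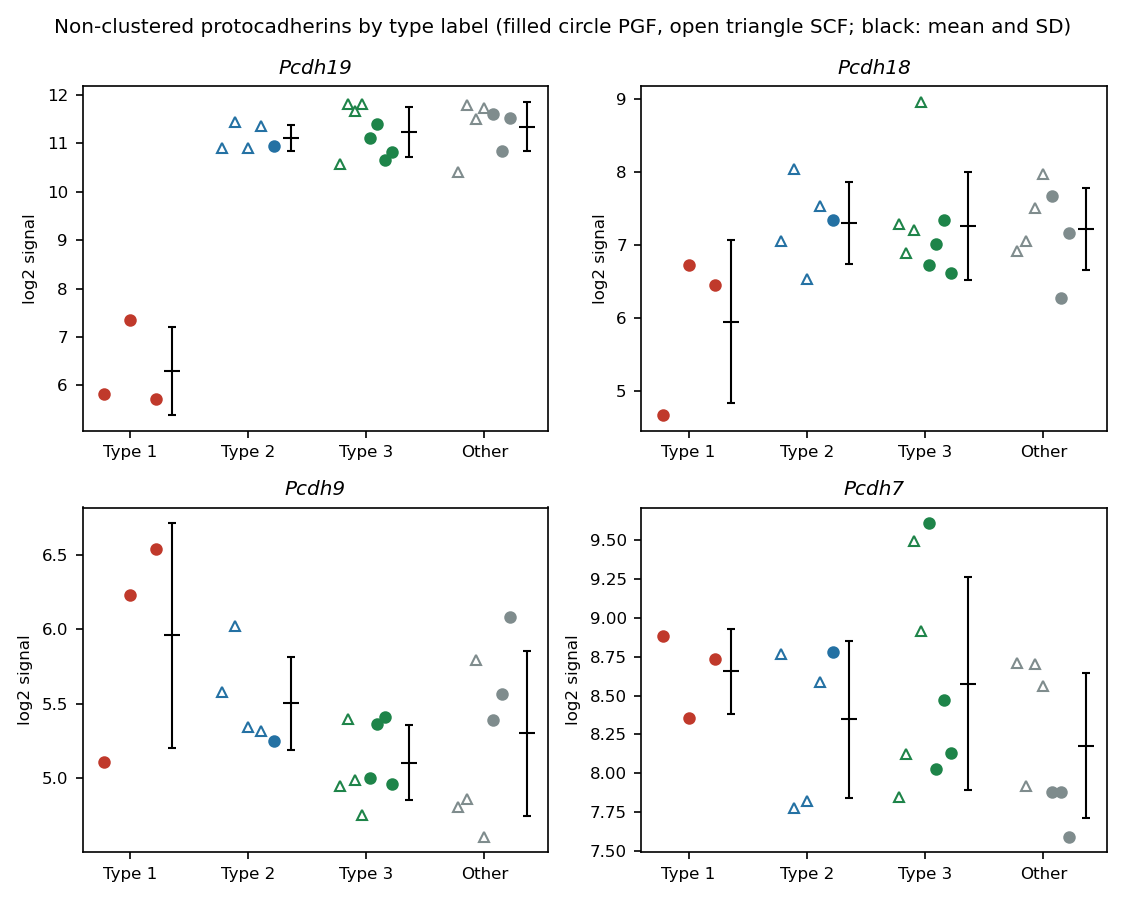
Log2 signal of Pcdh19, Pcdh18, Pcdh9 and Pcdh7 in each line by type label, with circles for PGF, triangles for SCF, and black bars for the mean and SD. For Pcdh19 the Type 1 lines lie between 5.72 and 7.34 and every other line at 10.41 or above; for the other genes the groups overlap.

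Pcdh18 was also lower in Type 1, but by less and with overlap. Its signals were 4.67, 6.73 and 6.45 in Type 1 and 7.06, 8.04, 6.53, 7.53 and 7.34 in Type 2. In Type 3 they ran from 6.61 through a median of 7.11 to 8.96, and in Other from 6.27 through 7.17 to 7.97. Type 1 line 1 was the lowest of all lines and Type 3 line 4 the highest, and the other 2 Type 1 lines lay within the range of the rest. The difference was -1.35 ± 0.49 for Type 1 minus Type 2 (adjusted p = 0.0459, limma) and -1.30 ± 0.45 for Type 1 minus Type 3 (adjusted p = 0.0291, limma). Without Type 1 line 1, the line with the high actin difference, these became -0.71 (adjusted p = 0.379, limma) and -0.66 (adjusted p = 0.32, limma), and the part of RNA quality was not tested. Array weights gave -0.65 for the second (adjusted p = 0.0248, limma). With depot in the model both calls were also lost (adjusted p = 0.197 and 0.083, limma). The first call was lost in 13 of the 23 fits that left out 1 line, with adjusted p from 0.051 to 0.379 (limma). A second Pcdh18 probe set correlated with the chosen one at 0.967, and the remaining one at 0.704, and both were highest in Type 3 line 4.

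Pcdh18 and Pcdh19 correlated across the 23 lines at 0.66, and at 0.49 over the 20 lines outside Type 1. The points share arrays and a mouse, and the value is given as a description.

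Pcdh9 and Pcdh7 are further delta protocadherins. Pcdh9 gave 5.11, 6.23 and 6.54 in Type 1 and 5.58, 6.02, 5.34, 5.31 and 5.25 in Type 2. In Type 3 it ran from 4.75 through a median of 4.99 to 5.41 and in Other from 4.61 through 5.39 to 6.08. Type 1 lines 2 and 3 were the highest of all lines, while line 1 lay among Type 3. The difference was 0.86 ± 0.29 for Type 1 minus Type 3 (adjusted p = 0.0259, limma) and 0.46 ± 0.31 for Type 1 minus Type 2 (adjusted p = 0.308, limma). Without Type 1 line 2 or line 3 the first call was lost, with adjusted p between 0.119 and 0.208 (limma), and with depot in the model its adjusted p was 0.0751 (limma). A second Pcdh9 probe set correlated with the chosen one at 0.733 and the remaining one at -0.14, so the probe sets of this gene differ. Across the lines Pcdh9 and Pcdhgc4 correlated at -0.67. This was the strongest correlation among all pairs of the tested protocadherins, picked as such, and is given as a description.

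Pcdh7 gave 8.88, 8.35 and 8.74 in Type 1 and 8.76, 7.77, 7.82, 8.59 and 8.78 in Type 2. It ran from 7.84 through a median of 8.30 to 9.61 in Type 3 and from 7.59 through 7.92 to 8.71 in Other. No group stood apart, and the differences were 0.31 ± 0.38, 0.08 ± 0.35, -0.23 ± 0.30 and -0.35 ± 0.24 in the 4 comparisons of type labels, none of which passed the test. Its 250 bases, chr5:57717831-57718080 on the plus strand of GRCm38.p6, are shown beside those of Pcdh17, chr14:84443313-84443562 on the plus strand, a gene high in 1 clone, again with CpG in capitals.
Pcdh7: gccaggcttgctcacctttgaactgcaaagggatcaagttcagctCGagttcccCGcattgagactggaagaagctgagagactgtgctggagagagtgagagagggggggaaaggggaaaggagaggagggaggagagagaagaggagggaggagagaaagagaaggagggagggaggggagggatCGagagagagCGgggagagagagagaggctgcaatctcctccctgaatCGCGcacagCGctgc
Pcdh17: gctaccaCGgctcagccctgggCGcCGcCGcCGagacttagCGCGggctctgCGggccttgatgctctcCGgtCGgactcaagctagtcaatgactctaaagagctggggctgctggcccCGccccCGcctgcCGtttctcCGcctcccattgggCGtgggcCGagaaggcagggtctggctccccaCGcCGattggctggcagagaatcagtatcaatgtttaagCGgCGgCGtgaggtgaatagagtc
Pcdh7 holds 7 CpGs with a GC content of 58.4% and no GC box, and Pcdh17 holds 21 CpGs with 64.8% and 1 GC box. Neither holds TATAAA.

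Several protocadherins were raised in 1 or a few clones. Pcdh17, a delta protocadherin known from nerve circuits, gave 3.14, 3.56 and 6.03 in Type 1. Elsewhere it ran from 3.07 to 4.38 in Type 2, from 2.84 to 3.43 in Type 3 and from 2.97 to 4.33 in Other. Type 1 line 3 alone lay above the midpoint of the gene's range, and its second probe set was highest in the same line at 5.36 (correlation 0.919 over the lines). Pcdh20 was highest in Type 2 line 2 at 5.69, followed by Type 3 line 5 at 5.37, with a median over all lines of 3.84. Its second probe set was highest in Type 2 line 2 as well, at 3.99. Pcdh10, known for a part in axon growth, lay between 4.85 and 5.29 in 22 lines and at 5.95 in Other line 7. In that line 3 further Pcdh10 probe sets were also highest, at 5.78, 5.43 and 5.23 against medians of 2.68, 3.48 and 3.66, and the remaining 2 showed no such rise. With the chosen probe sets, a gap of at least 1 between the highest and the next line occurred in 2 of the 35 protocadherins (5.71%), Pcdh17 and Pcdhb3. Over all genes it occurred in 2%. Pcdh10 is not in this count, though its probe set at 5.78 in Other line 7 had the next line at 3.83.

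**Figure D4:**
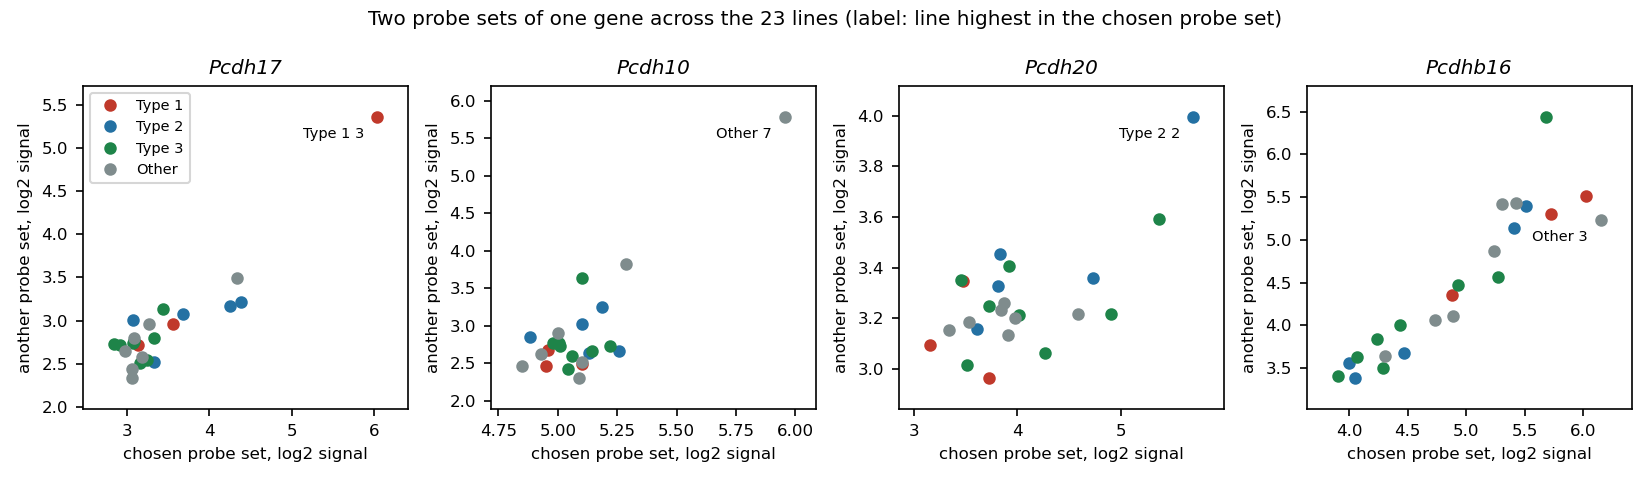
Each point is 1 of the 23 lines, coloured by type label, with the log2 signal of the chosen probe set on the x axis and of another probe set of the same gene on the y axis. Type 1 line 3 is highest on both axes for Pcdh17, Other line 7 for Pcdh10 and Type 2 line 2 for Pcdh20, while for Pcdhb16 different lines are highest.

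The clustered Pcdhb genes encode the cell surface isoforms of a single cluster, each from 1 exon with its own promoter. In their order along chromosome 18, the 5 that were tested all lay in places 16 to 22 of the 22, and the 15 genes before them were untested. Pcdhb18 and Pcdhb19, within those places, were untested too. The filter sets each probe set against a common level, and probe sets can differ in brightness. A pattern of expression along the cluster was therefore not tested. The 17 untested Pcdhb genes had values from 2.49 to 4.76, with a median range of 0.67, and 14 had a range under 1. Some still rose in 1 or a few lines: Pcdhb3 reached 4.53 in Type 3 line 2 against a median of 2.98, and Pcdhb7 reached 4.10 in the same line against 2.96. Pcdhb19 reached 4.25 in Type 3 line 4 against 3.26. The genes next to the clusters served as a comparison, and none of the 18 tested had a range of 2 or more (median 0.84). Over all tested genes 17.6% had such a range. The neighbours were taken by position and not matched to the Pcdhb genes in signal, so a difference particular to the clusters was not tested.

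Pcdhb22 was the Pcdhb gene that differed most by type label. Its signals were 5.95, 4.56 and 4.61 in Type 1 and 3.70, 4.10, 3.06, 3.71 and 3.63 in Type 2. In Type 3 they ran from 4.76 through a median of 5.00 to 6.15 and in Other from 2.90 through 4.15 to 5.18. All 5 Type 2 lines lay below all 8 Type 3 lines and all 3 Type 1 lines, while Other overlapped each type. The gene passed the filter on low values through 5 lines, none of them Type 2. It was thus selected for being high outside Type 2, and its tests against Type 2 are not independent of that selection. The difference was -1.52 ± 0.34 for Type 2 minus Type 3 (adjusted p = 0.0497, limma), 2.86-fold lower, and 1.40 ± 0.43 for Type 1 minus Type 2 (adjusted p = 0.0198, limma), 2.64-fold higher. Type 1 minus Type 3 was -0.12 ± 0.40 (adjusted p = 0.841, limma). The first call lay near the threshold and held in 6 of the 23 fits without 1 line and in 3 of 9 other settings, with adjusted p from 0.00229 to 0.176 (limma) and the difference from -1.64 to -1.24. The second was lost only without Type 1 line 1, where it was 0.94 (adjusted p = 0.186, limma). Most of these signals lie at or below the table median, and no detection calls were used here.

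Pcdhb21 gave 4.41, 4.22 and 4.71 in Type 1 and 4.28, 4.36, 4.36, 4.38 and 4.29 in Type 2. In Type 3 it ran from 4.32 through a median of 5.02 to 5.42 and in Other from 4.11 through 4.48 to 4.79. The gene passed the filter on low values through 3 lines, all of them Type 3, so it was selected for being high there and its tests against Type 3 are not independent of that selection. Of the 8 Type 3 lines 7 lay above every Type 1, Type 2 and Other line, and line 3 lay among them. The difference was -0.57 ± 0.18 for Type 1 minus Type 3 (adjusted p = 0.0185, limma), lost without Type 1 line 1 or line 2 (adjusted p from 0.0668 to 0.112, limma). Type 2 minus Type 3 was -0.67 ± 0.15 (adjusted p = 0.0507, limma), which missed the threshold. Pcdhb21 and Pcdhb22 correlated at 0.62 over the lines and at 0.34 once group means were removed.

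Pcdhb17, Pcdhb16 and Pcdhb20 passed no comparison of type labels, and their values spread within each group. Pcdhb17 gave 6.45, 5.56 and 4.04 in Type 1 and 5.62, 5.62, 3.90, 5.93 and 5.59 in Type 2. In Type 3 it ran from 3.42 through 5.38 to 7.01 and in Other from 4.25 through 5.12 to 6.04. The lowest and the highest of all 23 lines were both Type 3 lines, lines 1 and 4, and every group overlapped every other. Its within-group SD stood at the 97.4 percentile of the tested genes, and 14 lines (2 of Type 1, 4 of Type 2, 5 of Type 3 and 3 of Other) lay above the midpoint of its range. Its difference was 0.02 for Type 1 minus Type 2 (adjusted p = 0.989, limma).

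Pcdhb16 gave 5.73, 6.02 and 4.88 in Type 1 and 5.51, 4.00, 4.05, 4.47 and 5.41 in Type 2. In Type 3 it ran from 3.91 through 4.37 to 5.68 and in Other from 4.31 through 5.24 to 6.15. The groups overlapped, and Type 1 minus Type 3 was 0.94 (adjusted p = 0.0777, limma). A second probe set correlated with the chosen one at 0.918 and was highest in Type 3 line 4. Pcdhb20 was high in 3 lines only, Type 3 line 4 (5.45), Type 2 line 2 (5.43) and Type 3 line 7 (5.22), with a median of 4.05. No comparison of Pcdhb20 passed the test.

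Pcdhgc4 lies at the far end of the Pcdhg cluster among the C-type isoforms, which in neurons are used more evenly than the others. Whether its probe set reads exons that all Pcdhg genes share was not tested. Its signals were 6.33, 5.74 and 5.96 in Type 1 and 6.12, 5.83, 6.34, 5.95 and 6.17 in Type 2. They ran from 5.98 through 6.42 to 7.36 in Type 3 and from 5.64 through 6.64 to 7.32 in Other, with overlap between all groups. The differences did not pass the test, the largest being -0.47 for Type 1 minus Type 3 (adjusted p = 0.2, limma).

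**Figure D5:**
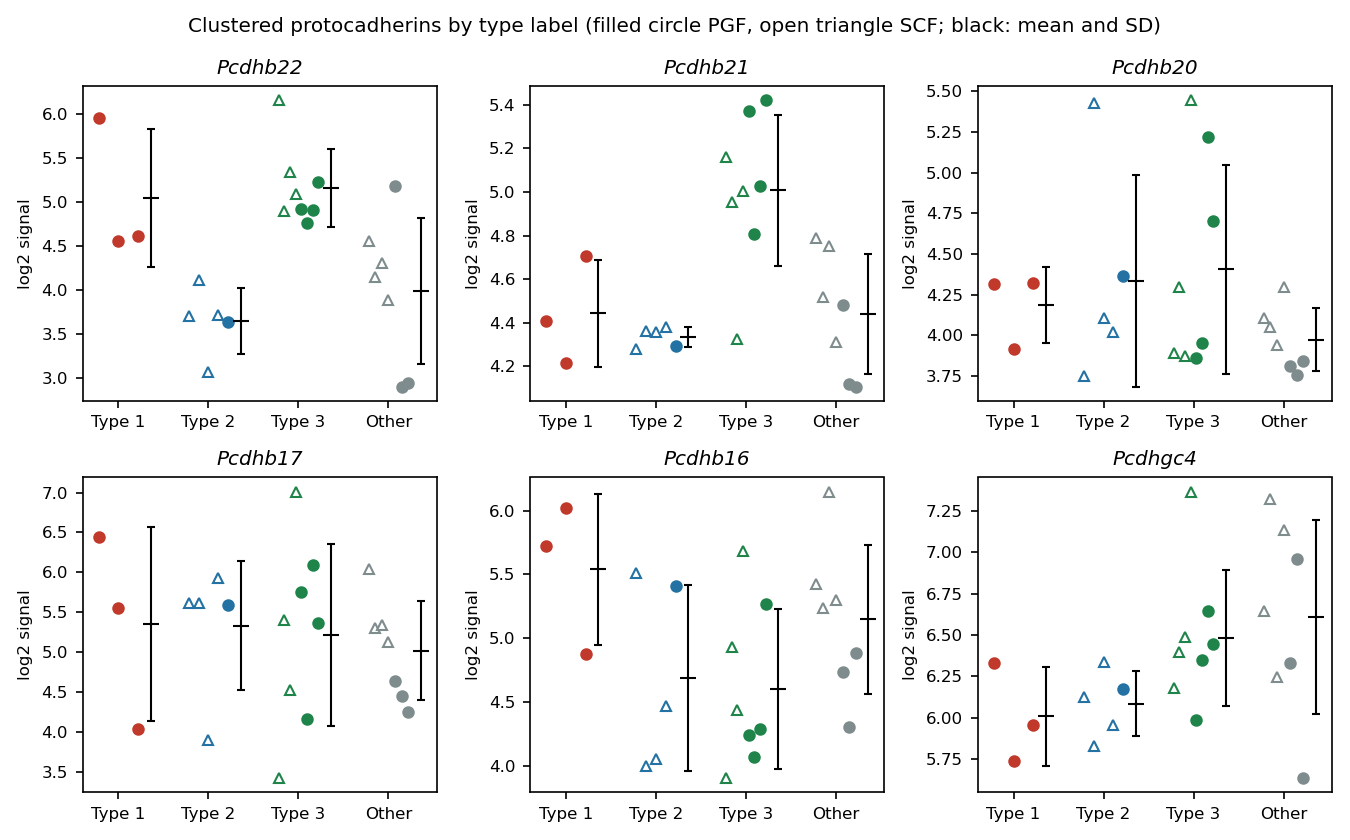
Log2 signal of Pcdhb22, Pcdhb21, Pcdhb20, Pcdhb17, Pcdhb16 and Pcdhgc4 in each line by type label, with circles for PGF, triangles for SCF, and black bars for the mean and SD. For Pcdhb22 the 5 Type 2 lines lie at 4.10 or below and the 8 Type 3 lines at 4.76 or above; for Pcdhb17 every group spreads widely.

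For each line the tested Pcdhb gene that stood highest relative to its own median was taken. This was Pcdhb16 in 7 lines, Pcdhb20 in 5, Pcdhb21 in 4, Pcdhb22 in 4 and Pcdhb17 in 3. No gene can exceed its own median in most lines, so the spread of these counts is a description only. Untested genes were left out, among them Pcdhb3 and Pcdhb7, which rose in Type 3 line 2. The lead was large in Type 3 line 4 (Pcdhb17, 1.65 above its median), Type 3 line 1 (Pcdhb22, 1.59), Type 1 line 1 (Pcdhb22, 1.39) and Type 2 line 2 (Pcdhb20, 1.38). In 2 of the 23 lines this gene did not exceed its median: Pcdhb16 lay at it in Other line 7, and Pcdhb20 stood at -0.29 in Other line 6. Averaged over the 6 tested clustered genes, Type 3 line 4 stood 0.97 above the gene means and Other line 7 stood lowest at -0.69. Type 3 line 4 held the highest value of 6 of the 35 protocadherins, and Type 1 line 1 the lowest of 9. Of those 9 all but Pcdh18 were untested genes, and Type 1 line 1 is the line with the high actin difference. How often these lines hold the extreme value over all genes was not counted. The 10 pairs of tested Pcdhb genes had a median correlation of 0.17 over the lines, from -0.12 to 0.62. Within groups the closest pairs were Pcdhb16 with Pcdhb17 (0.63) and Pcdhb17 with Pcdhb20 (0.52). Whether a Pcdhb probe set also reads the RNA of other Pcdhb genes was not tested. Pcdhb17, Pcdhb20 and Pcdhb22 rest on 1 probe set each.

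Depot gave no call. With group in the model, 0% of the tested genes and 0 of the 11 protocadherins passed in PGF minus SCF (limma). At an unadjusted p under 0.05 there were 1034 genes and 1 protocadherin, Pcdh10 (0.21, adjusted p = 0.573, limma). For Pcdh19 the difference was -0.26 ± 0.24 and for Pcdhb22 -0.40 ± 0.27. The 11 tested genes had a median difference of -0.21 and all tested genes 0.00. Type 1 holds no SCF line, so no depot difference could be measured within it.

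The genes that control or follow the protocadherins were read from lists. Of 18 tested regulators of the clusters 4 were higher and none lower in Type 1 minus Type 2: Tet2 (0.90), which removes DNA methylation, Trim28 (0.49), a co-repressor, the cohesin subunit Smc3 (0.41) and the methyltransferase Dnmt3a (0.68). In Type 1 minus Type 3, 4 were higher and none lower: Trim28 (0.37), Uhrf1 (0.37), Tet2 (0.49) and Rad21 (0.35). These 4 calls were lost without Type 1 line 1, with adjusted p of 0.0876, 0.0884, 0.285 and 0.388 (limma). With depot in the model Uhrf1, Tet2 and Rad21 were also lost (adjusted p = 0.0797, 0.0601 and 0.0895, limma). Tet2 and Rad21 were lost without the filter, with quantile normalization and with the clone-name number in the model. Rad21 lay near the threshold (adjusted p = 0.0479, limma) and was lost in most fits that left out 1 line. Tet2 was lost in several of these fits. Uhrf1 was lost without Type 1 line 3 (adjusted p = 0.104, limma) and with the mean of its probe sets (0.0525). Against Type 2, Smc3 and Dnmt3a were lost with depot in the model (adjusted p = 0.0527 and 0.0661, limma), Smc3 without Type 1 line 3 (0.0581) and Dnmt3a without line 2 or line 3 (0.114 and 0.138). Ctcf, which binds the protocadherin promoters, gave 0.06 and -0.17, and Smchd1, a silencer of the clusters, 0.07 and 0.16, and neither passed.

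Among 14 tested signalling partners 4 were higher and 2 lower in Type 1 in each comparison. Wasf1, of the WAVE complex that some delta protocadherins recruit, was 1.91 and 1.73 higher than in Type 2 and Type 3, and the kinase Ptk2b 2.42 and 2.24. The kinase Fyn was lower, at -1.10 and -1.56, the first lost without Type 1 line 2 (adjusted p = 0.0727, limma) and with depot in the model (0.0805). Of 11 tested other large cadherins 2 were lower than in Type 2 and 4 lower than in Type 3, and none was higher. Fat4 stood at -3.18 and -3.49 and Fat1 at -1.35 and -1.34. Celsr1, left untested by the filter on low values, gave 3.51, 5.40 and 5.63 in Type 1 and at most 3.55 in the other groups. In Type 2 minus Type 3 no gene of these lists passed, and the Type 1 shares stand beside backgrounds of 25.2% and 34.7%.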

How the data were processed

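Total RNA of 23 clonal lines was measured on 1 array each, from 250 ng of RNA, per the labels' protocols. The deposited table holds log2 values from 2.03 to 14.46; no header names the scale, so it was inferred from the values. Per the submitters' processing notes the authors used MAS5 (version unstated). Neither the scaling of the arrays nor the differentiation state of the cells at RNA extraction is stated in those notes or labels. Array medians were nearly equal, so the values were used as deposited. The number of arrays limits the precision, and no detection calls were used.

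Symbols were those of the platform annotation, and probe sets listing several were left out (932 of 45101). A match through Entrez IDs to RefSeq genes of GRCm38.p6 changed 0 symbols, and promoters came from RefSeq windows of the same build. Genes above the table median of 5.13 in at least 3 lines were tested by lmFit and eBayes of limma 3.58.1 under R 4.3.3, with group as the only term over all 23 lines and Benjamini-Hochberg adjustment over 12307 genes. The depot comparison kept group in the model. Groups came from the labels, and a line number is a name given in deposition order. Python 3.11.15, numpy 2.4.6, pandas 2.3.3 and matplotlib 3.10.9 made the summaries and plots. The fit was tested on simulated data.

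Genes were named when they passed in any comparison, were among the 12 protocadherins with the largest range or the 4 with the highest mean; others are given by count or by lowest, median and highest values, and of each further list up to 4 that passed, with Ctcf and Smchd1. Pcdh10, Pcdhb7, Pcdhb19, Celsr1 and single cell type markers were named after their values were seen. The members and lists were chosen with earlier results of these data known. Alternatives were the filter, probe set choice, scaling, array weights, clone-name number, depot, the samples in the fit and each line left out.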

Additional observations from a re-analysis of the deposited data

Results flagged for a closer look

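Each protocadherin was checked in each group of 5 to 8 lines for a line far from the others, by its gap to the nearest line over the group's range (Dixon's 95% value). This picked out 15 of 105 checks, and Type 1, with 3 lines, was not checked. The nominal rate is about 1 in 20, but no share over all genes is given. The count therefore cannot be read as an excess particular to protocadherins. Type 3 line 4 was highest for Pcdh18 (8.96, next 7.35) and Pcdhb19 (4.25, next 3.48) and lowest for Pcdh15 (4.03, next 4.37). Type 3 line 2 was highest for Pcdhb3 (4.53, next 3.17) and Pcdhb10 (3.13, next 2.97). Type 3 line 8 was highest for Pcdhb12 (3.27, next 2.90) and Pcdhb15 (4.44, next 4.08), and Type 3 line 1 for Pcdhb22 (6.15, next 5.34). In Type 2, line 3 was lowest for Pcdhb17 (3.90, next 5.59). In Other, line 7 was highest for Pcdh10 (5.95, next 5.29) and line 5 for Pcdh17 (4.33, next 3.26). Other line 3 was highest for Pcdhb11 (4.04, next 3.69) and Pcdhb13 (4.56, next 4.21) and lowest for Pcdh1 (2.98, next 3.35), and Other line 1 was lowest for Pcdh12 (4.09, next 4.31). Many of these gaps are small, among values below the table median.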

How the results depend on the processing

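The Pcdh19 difference from Type 2 and Type 3 passed in all 32 alternatives of each comparison, from -5.33 to -4.50 and from -5.46 to -4.65. The number of protocadherins called in Type 1 minus Type 3 went from 4 to 2 with the mean of a gene's probe sets and with depot in the model. In Type 2 minus Type 3 it went from 1 to 0 without the filter on low values, with the mean of probe sets, with arrays centred on their medians, with quantile normalization, with the clone-name number in the model and with all probe sets tested separately (1 or 2 at an unadjusted p under 0.05 in limma), and to 2 with array weights, with depot in the model and in the 16 lines of the 3 types alone. In Other it went from 1 to 2 with array weights and to 0 without the Type 1 lines (0 at an unadjusted p under 0.05). The count of genes with a range of at least 3 went from 5 to 8 at a threshold of 2 and to 2 at 4. Leaving out 1 line gave 1 to 3 calls for Type 1 minus Type 2, 2 to 5 for Type 1 minus Type 3, 0 to 2 for Type 2 minus Type 3, 1 to 2 for Other, 0 for depot, and 4 to 5 genes by range (4 without Type 1 line 1 or line 3). The cause of these moves was not tested. No difference changed sign past the threshold. Testing all probe sets separately and comparing Other without Type 1 were chosen after seeing the data. No paired analysis was possible because the labels give no replicate numbers; the number in the clone names, whose meaning is not stated, was used only as a term in the model. Signals below the table median, which hold most Pcdhb values, limit what small differences can show.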
